A study of Mus musculus with 10 samples.

Results

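The genes described here are 10 members of the secondary (specific) granule programme of the neutrophil other than Lcn2: Ltf, Camp, Ngp, Chil3, Mmp8, Hp, Olfm4, Pglyrp1, Cd177 and Itgb2l. They were chosen by name, as partners of lipocalin 2 in the same granule, and make up 10 of the 19938 genes that have a probe set assigned to 1 gene on the arrays. By the RefSeq gene table, Ltf, Camp, Ngp and Mmp8 lie on mouse chromosome 9, Pglyrp1 and Cd177 on chromosome 7, Chil3 on 3, Hp on 8, Olfm4 on 14 and Itgb2l on 16, and none lies on chromosome 2, which holds Lcn2. Each member had 1 such probe set, and all 10 were above the filter on dim genes (8.18 on the log2 scale) on every array. The question asked of them was whether their RNA differed when Lcn2 was lost. No member passed the test in a genotype comparison. Their values were lower in the knockout in unstimulated pairs 1 and 2 and, by small amounts, in fMLP pair 1. In unstimulated pair 3 they were close to level, with 8 of the 10 slightly higher in the knockout. The largest median difference of each condition came in the pair numbered 2, and fMLP knockout replicate 2 also carried a high signal of neuron genes.

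Secondary granules form while neutrophil precursors mature in the bone marrow, at the myelocyte and metamyelocyte stages, and their protein genes are switched on together under the control of transcription factors that include C/EBP epsilon. Mature neutrophils carry the finished proteins and release them on stimulation. Lipocalin 2, the product of Lcn2, is stored in the same granules and binds bacterial siderophores, which withholds iron from bacteria.

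RNA came from neutrophils of the bone marrow of female C57BL/6 mice 10 weeks old, enriched on a Percoll gradient and hybridised to Affymetrix Mouse Gene ST arrays. There were 3 arrays of unstimulated Lcn2 knockout cells and 3 of unstimulated wild type cells, and 2 of knockout cells and 2 of wild type cells after fMLP, a formylated peptide that activates neutrophils (10 micromolar for 20 minutes at 37 degrees C). The labels describe neither the knockout allele, nor whether replicates were separate animals, nor whether unstimulated cells were also warmed, so p-values measure only the spread between these samples, which may be technical. Values are RMA signals (background-corrected, normalised and summarised per probe set), taken as log2.

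The arrays fell into 2 sets by the spread of their values. Unstimulated replicates 1 and 2 of both genotypes form array set 1 (interquartile range 1.64 to 1.68). Unstimulated replicate 3 of both genotypes and all 4 fMLP arrays form array set 2 (2.47 to 2.59). Lcn2 itself had 9.20, 8.36 and 8.09 in unstimulated knockout cells, against 13.88, 13.93 and 14.02 in wild type cells. After fMLP it had 8.42 and 9.60 in knockout cells, against 14.13 and 14.16 in wild type cells. The genotypes did not overlap, and Lcn2 was the 1 gene called in each genotype comparison (limma, -5.39 with SE 0.37 and adjusted p = 0.00367 unstimulated, -5.14 with SE 0.45 and adjusted p = 0.0280 after fMLP). The neutrophil markers S100a8, S100a9, Ly6g, Csf3r and Cxcr2 were bright on every array, from 11.28 for Csf3r on 1 knockout array to 13.89 for Ly6g on another. fMLP knockout replicate 2 stands apart: the mean of 16 neuron genes was 10.79 there, against 7.38 to 7.43 on the other 3 fMLP arrays and 7.44 to 8.09 on unstimulated arrays. For example, Snap25, a synaptic fusion protein, had 13.43 on that array and 7.36 to 8.78 elsewhere. Results that use it are given with and without it. In such bulk samples, fewer cells of a type and less RNA per cell cannot be told apart.

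Because the members are known to be switched on together, their promoters were read from RefSeq (GRCm38.p6), which matched 9 of the 10 genes. In the 250 bases before the start, the letters TTGCNNAA, a form of the palindrome bound by C/EBP factors, were searched on both strands. They occurred in 3 of the 9 members (Ltf, Ngp and Mmp8), against 9.56% of 32851 windows of the same length. GAGGAA, letters found in sites of the myeloid factor PU.1, occurred in 6 of 9 members (Ltf, Mmp8, Olfm4, Pglyrp1, Cd177 and Itgb2l) against 23.3% of windows. The RUNX letters AACCAC occurred in 0 of 9 members (10.8% of windows), and TATAAA in 1 of 9, Cd177 (12.4% of windows). Matches of different motifs shared bases in 0 places in these windows, and a match is a description of the sequence, not a bound site. The 3 promoters with a TTGCNNAA match on either strand are shown as the last 150 bases before the start, with matches in capitals. All 3 genes lie on the plus strand of chromosome 9. TTGGGCAA, in Ltf and at -11 in Ngp, matches on the opposite strand, where it reads TTGCCCAA.
Ltf: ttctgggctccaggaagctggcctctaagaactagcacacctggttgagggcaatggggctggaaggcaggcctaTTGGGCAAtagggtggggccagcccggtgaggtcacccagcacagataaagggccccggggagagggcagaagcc
Ngp: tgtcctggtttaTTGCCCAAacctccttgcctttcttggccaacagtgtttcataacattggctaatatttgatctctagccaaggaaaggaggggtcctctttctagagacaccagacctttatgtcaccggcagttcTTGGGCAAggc
Mmp8: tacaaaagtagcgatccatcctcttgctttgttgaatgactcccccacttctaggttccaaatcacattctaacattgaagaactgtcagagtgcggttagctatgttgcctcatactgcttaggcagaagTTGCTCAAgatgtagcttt
The stretches lie at chr9:111019142-111019291 for Ltf, chr9:110419658-110419807 for Ngp and chr9:7558279-7558428 for Mmp8. The capitals begin at position -75 in Ltf, at -138 and -11 in Ngp and at -19 in Mmp8, counted back from the start. Ngp is the only member of the 9 with 2 matches. Camp, which lies on the same chromosome, had none in its window.

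The binders of iron and haemoglobin come first, as the partners of Lcn2 in withholding iron. Ltf, lactoferrin, which chelates iron, had 12.69, 11.94 and 13.98 in unstimulated knockout cells (replicates 1, 2 and 3), against 12.96, 12.68 and 13.92 in wild type cells. After fMLP it had 14.01 and 13.83 in knockout cells, against 14.07 and 14.17 in wild type cells. Knockout replicate 2 was the lowest array of each condition, and unstimulated replicate 3 was level between genotypes. The fitted difference was -0.32 (SE 0.51) unstimulated and -0.20 (SE 0.63) after fMLP. Hp, haptoglobin, which captures free haemoglobin, had 10.63, 10.65 and 12.87 in unstimulated knockout cells, against 10.87, 10.82 and 12.86 in wild type cells. With fMLP the signals were 12.68 and 11.58 in knockout cells, against 12.71 and 12.69 in wild type cells. The largest same-number distance of Hp was that of fMLP knockout replicate 2, at -1.11 from its wild type array, followed by -0.24 in unstimulated pair 1. The fit gave -0.13 (SE 0.74) unstimulated and -0.57 (SE 0.91) after fMLP for Hp.

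The antimicrobial members include Camp, the precursor of the cathelicidin peptide. Camp had 13.03, 12.24 and 13.90 in unstimulated knockout cells, against 13.09, 12.80 and 13.82 in wild type cells. After fMLP Camp had 13.57 and 13.05 in knockout cells, against 13.62 and 13.75 in wild type cells. Both knockout arrays numbered 2 were the lowest of their condition, while the other pairs lay within 0.0843 of each other. Camp differed by -0.18 (SE 0.44) unstimulated and -0.38 (SE 0.53) after fMLP. Ngp, the neutrophilic granule protein, related to cathelicidins and cystatins, had 13.69, 13.26 and 13.83 in unstimulated knockout cells, against 13.70, 13.65 and 13.84 in wild type cells. Its fMLP signals were 13.87 and 13.83 in knockout cells, against 13.94 and 13.89 in wild type cells. Ngp lay at or above percentile 99.6 of all probe sets on every array, and all its arrays but unstimulated knockout replicate 2 lay between 13.65 and 13.94. Ngp gave -0.13 (SE 0.20) unstimulated and -0.06 (SE 0.25) after fMLP, the smallest standard errors of the 10 members. Pglyrp1, which binds bacterial peptidoglycan, had 12.46, 12.41 and 13.72 in unstimulated knockout cells, against 12.68, 12.75 and 13.70 in wild type cells. After fMLP Pglyrp1 had 13.57 and 13.08 in knockout cells, against 13.65 and 13.67 in wild type cells. Its knockout arrays were below the wild type arrays of the same set and condition in all but unstimulated replicate 3. The differences were -0.18 (SE 0.42) unstimulated and -0.33 (SE 0.51) after fMLP.

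Mmp8, the neutrophil collagenase, is the protease of the set. Mmp8 had 12.39, 12.22 and 13.59 in unstimulated knockout cells, against 12.51, 12.77 and 13.67 in wild type cells. After fMLP Mmp8 had 13.55 and 13.23 in knockout cells, against 13.65 and 13.64 in wild type cells. With Ngp it was one of the 2 members lower in the knockout in all 5 same-number pairs, as were 7.05% of all tested genes. Mmp8 differed by -0.25 (SE 0.42) unstimulated and -0.26 (SE 0.51) after fMLP. Chil3, a chitinase-like lectin known as Ym1, had 9.69, 9.08 and 12.88 in unstimulated knockout cells, against 10.14, 9.94 and 12.78 in wild type cells. After fMLP Chil3 had 12.97 and 12.02 in knockout cells, against 13.01 and 12.85 in wild type cells. The mean of its unstimulated arrays of set 1 minus that of set 2 was -3.11, the largest such gap of the 10 members, against -0.25 for Ngp. Chil3 differed by -0.41 (SE 1.06) unstimulated and -0.44 (SE 1.29) after fMLP. Chil4, a close paralog of Chil3 with its own probe set, had 7.4 to 8.0 over the 10 arrays, and how far the Chil3 probes also take up Chil4 transcript is not known from the files.

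Olfm4, Cd177 and Itgb2l complete the set. Olfm4, olfactomedin 4, a glycoprotein that only part of the neutrophils contain, had 9.72, 9.72 and 12.35 in unstimulated knockout cells, against 10.00, 9.77 and 12.32 in wild type cells. After fMLP Olfm4 had 12.07 and 10.96 in knockout cells, against 12.15 and 12.32 in wild type cells. The distance of -1.36 between the arrays numbered 2 after fMLP was the largest of any member in any pair. Olfm4 gave -0.10 (SE 0.87) unstimulated and -0.71 (SE 1.06) after fMLP. Cd177, a surface protein anchored in granule and plasma membranes, had 11.49, 10.90 and 13.21 in unstimulated knockout cells, against 11.70, 11.54 and 13.12 in wild type cells. After fMLP Cd177 had 13.24 and 12.57 in knockout cells, against 13.34 and 13.31 in wild type cells. As in every member but Ngp and Mmp8, the knockout was slightly higher in unstimulated replicate 3 and lower in every other pair. The differences of Cd177 were -0.25 (SE 0.62) unstimulated and -0.42 (SE 0.77) after fMLP. Itgb2l, an integrin beta 2-like protein known as pactolus, had 10.65, 10.29 and 12.35 in unstimulated knockout cells, against 10.70, 10.72 and 12.34 in wild type cells. After fMLP Itgb2l had 12.60 and 11.90 in knockout cells, against 12.70 and 12.79 in wild type cells. Replicates 1 and 3 differed little between unstimulated genotypes, and the arrays numbered 2 differed most. Itgb2l gave -0.15 (SE 0.61) unstimulated and -0.49 (SE 0.75) after fMLP.

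**Figure D1:**
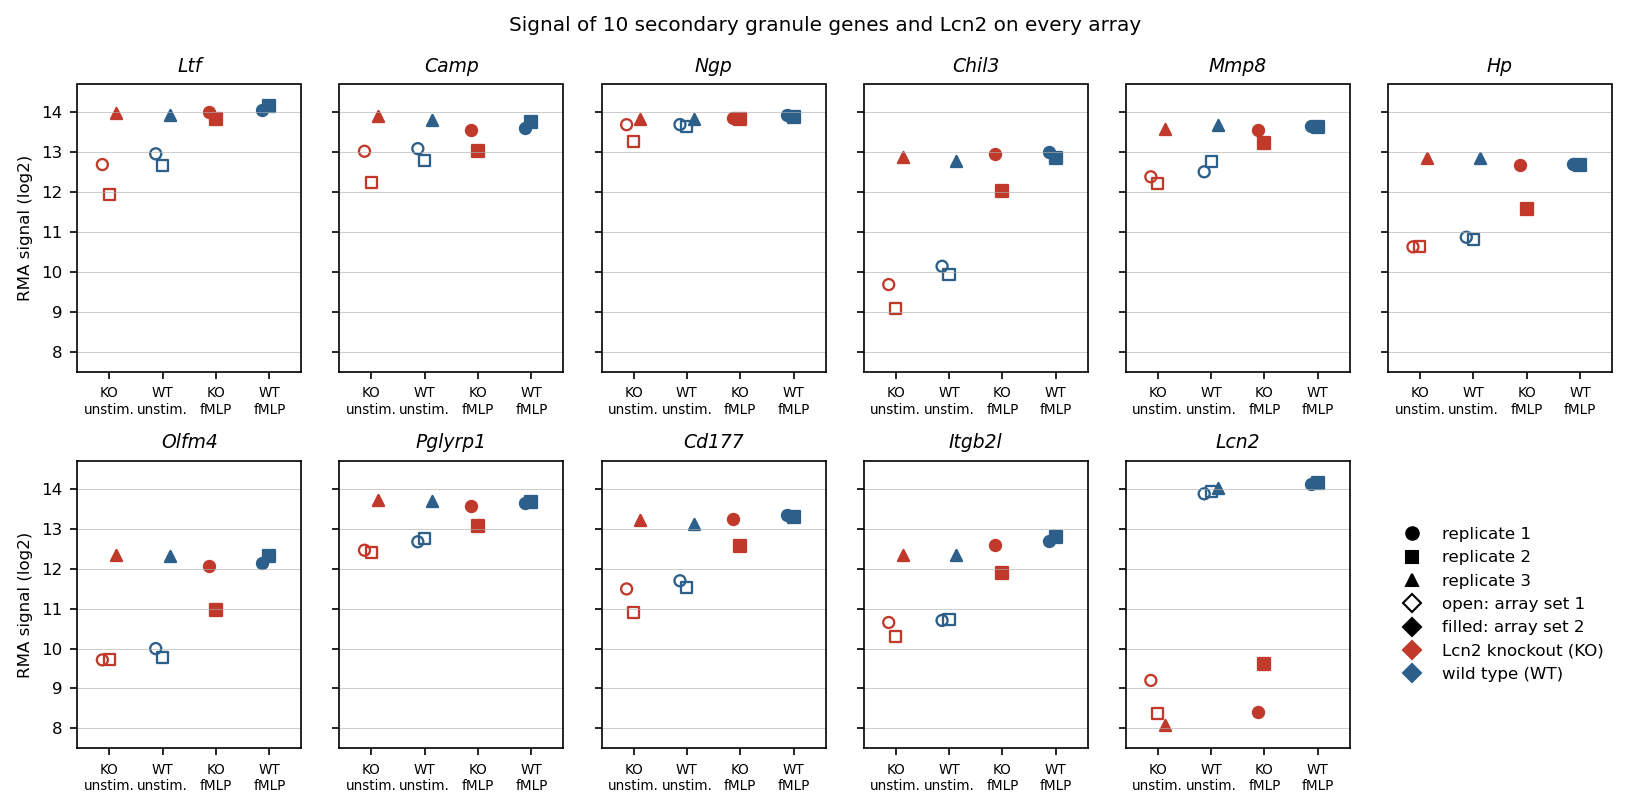
RMA signal (log2) of the 10 secondary granule genes and Lcn2 on each of the 10 arrays, 1 panel per gene, with knockout (red) left of wild type (blue) in each condition, symbols for the replicate number and open symbols for array set 1. Lcn2 separates the genotypes completely, while all members but Camp separate the array sets, and the knockout squares (replicate 2) are often the lowest symbols of their condition.

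The same-number pairs show how the genotype difference was spread over the arrays. In unstimulated pair 1, the knockout array was the lower one for all 10 members (47% of tested genes), and the median difference was -0.21, from -0.46 (Chil3) to -0.0033 (Ngp). The same held for all 10 in pair 2 (50% of tested genes), where the median was -0.49, from -0.87 (Chil3) to -0.047 (Olfm4). In pair 3, whose arrays belong to set 2, the median was 0.02, with 2 members lower (Mmp8 and Ngp, 43.8% of tested genes) and 8 higher, from -0.084 (Mmp8) to 0.098 (Chil3). The medians over all 14070 tested genes were 0.013, -0.00016 and 0.016 in pairs 1, 2 and 3. Of all tested genes, 25.7% were lower in the knockout in both pairs 1 and 2, against 10 of 10 members. The members share the arrays, so such counts are not 10 independent observations. In all 3 unstimulated pairs the share was 12.1%, against 2 of 10 members.

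After fMLP, all 10 members were lower in the knockout in both pairs, as were 36% of tested genes. The sizes differed between the pairs. In pair 1, where 51.7% of tested genes were lower, the members' median was -0.069, from -0.11 (Mmp8) to -0.028 (Hp), against -0.0055 over all tested genes. In pair 2, where 59.4% were lower, it was -0.72, from -1.36 (Olfm4) to -0.056 (Ngp), against -0.10 over all tested genes. Knockout replicate 2 was below the other 3 fMLP arrays for all 10 members and for 52.7% of tested genes. Without it, knockout replicate 1 minus the mean of both wild type arrays had a median of -0.095, with 9 of 10 members lower (51.5% of tested genes) and Chil3 higher by 0.036.

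**Figure D2:**
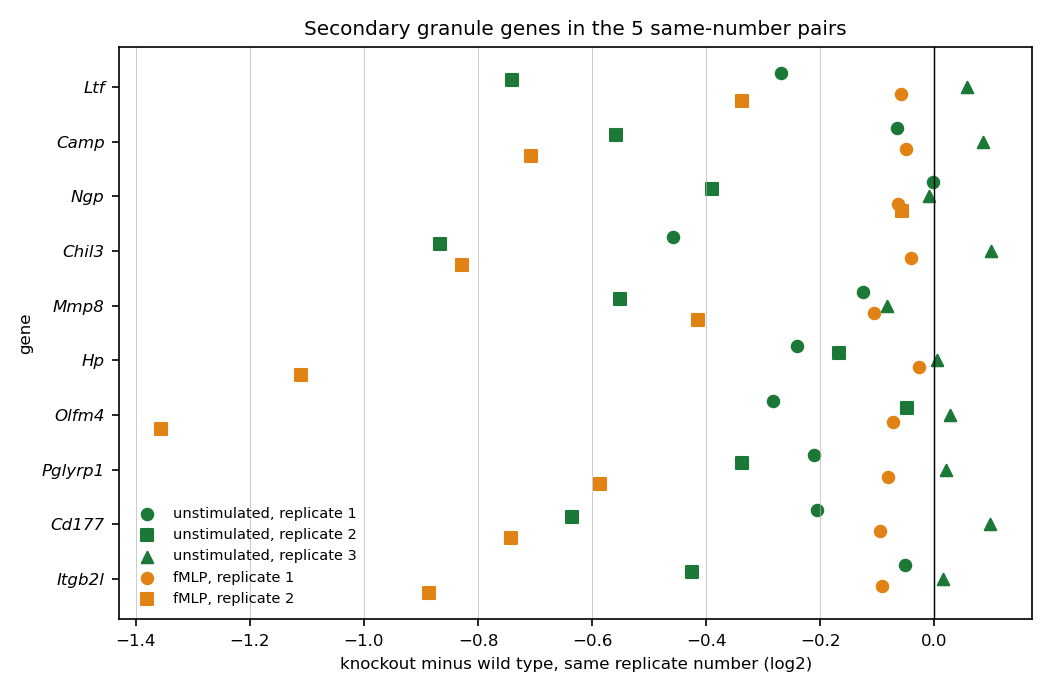
Knockout minus wild type (log2) for each secondary granule gene in the 5 same-number pairs, with green symbols for unstimulated and orange symbols for fMLP pairs and shapes for the replicate number. Squares (pairs of replicate 2) reach -0.87 unstimulated and -1.36 after fMLP, while triangles (unstimulated replicate 3) and orange circles (fMLP replicate 1) lie between -0.11 and 0.098.

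In the unstimulated genotype comparison of the fit to all 10 arrays, 0 of the 10 members were called, where 0.00711% of tested genes were called. There 0 of the 10 had an unadjusted p below 0.05, while Lcn2 alone did (limma). All 10 differences were below 0 (45.4% of tested genes), with a median of -0.18 and a range of -0.41 (Chil3) to -0.10 (Olfm4). The arrays of the genotypes overlapped for every member, whereas 0.149% of tested genes had all 3 knockout arrays below all 3 wild type arrays. Within array set 1, 7 members had both knockout arrays below both wild type arrays, as did 13.5% of tested genes. The spread between sets was the main part of the error: with the array set as a block, the median residual SD over all genes was 0.16, against 0.44 without it. The block left the differences as they were, and still 0 members were called. Its 95% intervals reached from -0.80 to 0.16 for Ltf, from -0.54 to 0.038 for Mmp8 and from -0.41 to 0.15 for Ngp, so decreases of up to those lower bounds are not excluded by these arrays. Pairing by replicate number, which unstimulated arrays bear out mainly through the array sets and fMLP arrays do not, also called 0 members. With that pairing 0 of 10 had an unadjusted p below 0.05 when all 10 arrays were fitted (0.483% of tested genes), and 3 of 10 when only the unstimulated arrays were fitted (7.04% of tested genes, limma).

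The unstimulated difference depended on which arrays entered and on their weights. With array weights the members' median was -0.40, against -0.18 with equal weights, and 0 members were called. There 5 of 10 had an unadjusted p below 0.05, against 3.81% of tested genes (limma). The weights were estimated without the array set in the model, so the difference between sets can enter them. Within set 1 alone the members' median was -0.29, with 0 called and 2, Chil3 and Mmp8, at an unadjusted p below 0.05 (2.76% of tested genes, limma), and in set 2 alone, which holds 1 unstimulated array per genotype, it was 0.02. Without unstimulated knockout replicate 2 the median turned to 0.23, and without wild type replicate 3 it turned to 0.20, but both leave the sets unequally filled between genotypes. With both unstimulated arrays numbered 2 left out and the set as a block, a choice made after the values were seen, the median was -0.10 with 9 of 10 members lower, and Camp at 0.0096. The median over all tested genes in that fit was 0.013. Unstimulated knockout replicate 2 was below the other 3 arrays of set 1 for 8 of 10 members and for 28.6% of tested genes.

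After fMLP the fit again called 0 of 10 members (0.00711% of tested genes were called, limma), and 0 of 10 had an unadjusted p below 0.05 (0.0782% of tested genes). All 10 differences were below 0 (56.7% of tested genes), with a median of -0.40, from -0.71 (Olfm4) to -0.06 (Ngp). Both knockout arrays were below both wild type arrays for 9 members (26% of tested genes), the exception being Chil3. With the array set as a block, Olfm4 alone among the members had an unadjusted p below 0.05 (95% interval -1.41 to -0.016, limma adjusted p = 0.416), as did 8.4% of tested genes. Without fMLP knockout replicate 2, and with the same block, the Olfm4 difference was -0.16 (interval -0.47 to 0.16) and that of Hp was -0.02 (-0.29 to 0.25). These intervals assume that the 1 knockout array left after fMLP varies like the arrays of the other groups. Over the 10 members the median without that array was -0.095, so 1 array carried most of the difference. In that fit Chil3 and Mmp8 had an unadjusted p below 0.05 in the unstimulated comparison, as did 3.48% of tested genes, with an adjusted p of 0.994 for each (limma). The interaction of genotype and fMLP, which asks whether the genotype difference itself changed, called 0 of 10 members and 0 of 14070 genes in limma, with 1 gene and no member at an unadjusted p below 0.05.

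**Figure D3:**
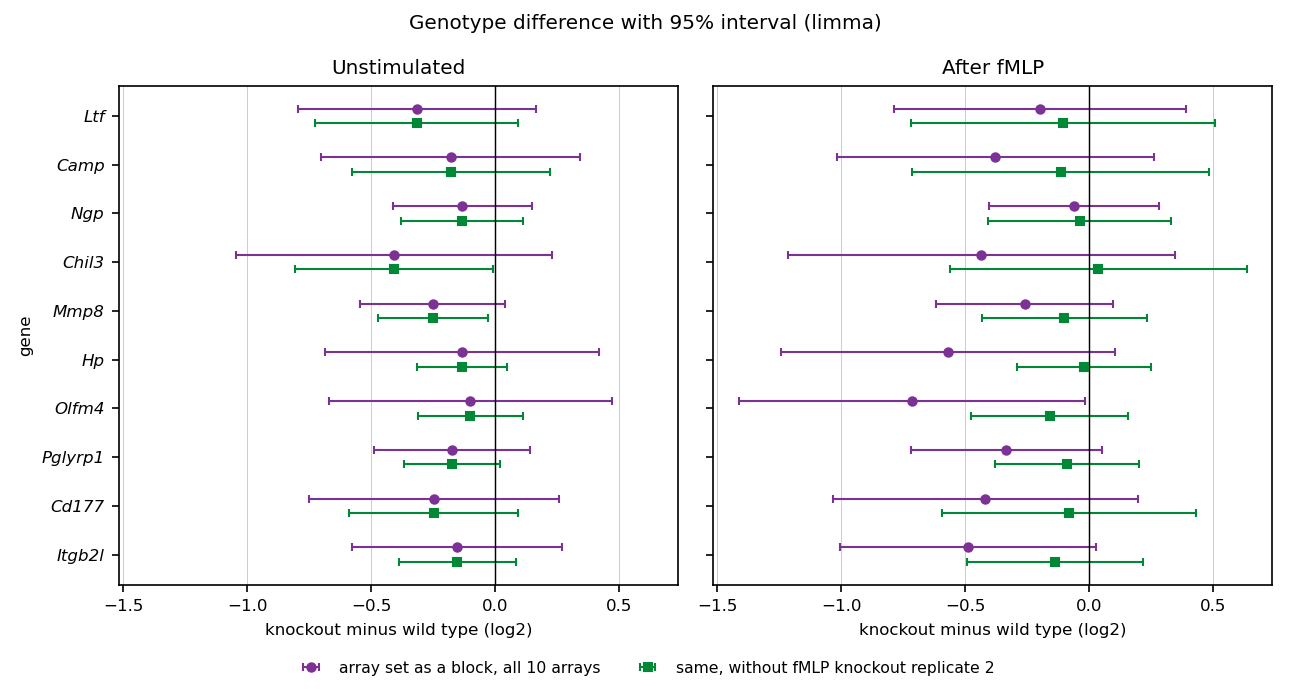
Knockout minus wild type (log2) with its 95% interval from limma for the 10 secondary granule genes, unstimulated (left) and after fMLP (right), with the array set as a block on all 10 arrays (purple circles) and without fMLP knockout replicate 2 (green squares). After fMLP the point estimates move towards 0 when that array is left out, with Olfm4 at -0.16 without it and at -0.71 with it.

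fMLP against unstimulated could be compared only across the array sets, or within set 2. Averaged over genotype, the members' median was 0.98, from 0.22 (Ngp) to 1.96 (Chil3), and 0 of 10 were called, where 0.0711% of tested genes were called (limma, lowest adjusted p of a member = 0.137). In 9 of the 10 members all arrays of set 1 lay below all arrays of set 2, as in 39.9% of tested genes. The array medians also differed between the sets, at 7.98 to 8.02 in set 2 and 8.33 to 8.37 in set 1. With the replicate number as a block all 10 members were called, as were 11758 of 14070 genes, since that block leaves the set difference inside the fMLP difference. All 10 were also called with array weights, as were 11762 of 14070 genes. Leaving out unstimulated wild type replicate 3 called 6 members and 7661 of all tested genes. Leaving out unstimulated knockout replicate 3 called 8 members and 8099 of all tested genes. Those are the 2 unstimulated arrays of set 2. With the array set as a block, the comparison rests on the fMLP arrays against unstimulated replicate 3, and the median was -0.11 with 0 of 10 called (0.341% of tested genes). The stimulus and the array set cannot be told apart for arrays outside set 2.

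Within set 2, the members were close to level. In wild type cells, the mean of the fMLP arrays minus unstimulated replicate 3 was above 0 for 5 members (48.8% of tested genes) and below 0 for the other 5, with a median of 0.03. Itgb2l was highest at 0.41 and Hp lowest at -0.16. In knockout cells, fMLP replicate 1 minus unstimulated replicate 3 was also above 0 for 5 members (46.8% of tested genes), with a median of -0.008, and Itgb2l was highest at 0.25 and Camp lowest at -0.33. With fMLP knockout replicate 2 in its place the median was -0.64, with 9 of 10 members lower. Of all tested genes, 61.3% were lower there, with a median of -0.11. Without that array, and with the set as a block, 0 members were called although 10.1% of tested genes were, and Itgb2l alone had an unadjusted p below 0.05 (24.2% of tested genes, limma). In the same comparison with all arrays and the block, all 7 tested eosinophil genes had differences below 0 and 4 of them were called lower after fMLP (limma, smallest p in Epx, Prg3, Ear6 and Prg2, which encode eosinophil granule proteins and ribonucleases). The mean of the 8 measured eosinophil genes was 8.83 and 7.98 in knockout cells and 8.52 and 8.57 in wild type cells after fMLP, against 10.20 in both unstimulated arrays of set 2. Of other cell types, 3 of 15 tested monocyte and macrophage genes and 2 of 7 tested basophil and mast cell genes were called lower in that fit. Without fMLP knockout replicate 2 and with the block, primary granule genes had a median difference of -0.57 (11 of 12 below 0). Eosinophil genes had -1.21 (7 of 7 below 0) and monocyte and macrophage genes -0.28 (10 of 15). B cell genes had 0.53 (4 of 13 below 0) and T and NK cell genes 0.79 (1 of 8). The median over all tested genes was -0.013. The part of these cell types in the members' values was not tested.

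Other granule and maturation genes were set beside the members. None of the 12 tested genes of other secondary granule proteins was called in either genotype comparison, nor any of the 12 tested primary granule genes, the 11 tertiary granule genes, the 15 granulopoiesis transcription factors or the 16 mature neutrophil genes (limma). In unstimulated pair 2, where the members' median was -0.49, it was -0.25 for the other secondary granule genes (11 of 13 measured lower), -0.21 for primary granule genes, -0.12 for tertiary granule genes and -0.095 for mature neutrophil genes. In pair 1 the primary granule genes were lowest of these lists, with a median of -0.40 and 11 of 13 lower, against -0.21 for the members. Cybb, the membrane subunit of the NADPH oxidase, sits largely in secondary granule membranes. It was the lowest of the other secondary granule genes in the knockout in pairs 1 and 2, at -0.34 and -0.86. Lrg1, a leucine-rich glycoprotein, was the highest in those pairs, at 0.39 and 0.46. In unstimulated pair 3 Lrg1 was the lowest of that list, at -0.10, and Cybb had 13.74 in knockout and 13.66 in wild type cells. Lrg1 was also the lowest in fMLP pair 2, at -1.20. Whether the members differ from these lists was not tested.

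In fMLP pair 2 the other neutrophil lists were lower too, as were lists of other cell types, with medians of -0.84 for B cell genes (13 of 13 lower), -0.68 for erythroid genes (9 of 9), -0.63 for eosinophil genes (8 of 8), -0.60 for monocyte and macrophage genes (17 of 17) and -0.47 for T and NK cell genes (12 of 12). Basophil and mast cell genes had -0.70 (10 of 10) and proliferation genes -0.75 (21 of 22). The drop was smaller in dendritic cell genes, at -0.39 (9 of 12), and in megakaryocyte genes, at -0.26 (6 of 6). The 16 measured neuron genes were all higher on the knockout array, with a median of 3.54, and the medians were -1.23 for primary granule genes, -1.01 for tertiary, -0.87 for other secondary granule genes and -0.80 for mature neutrophil genes, beside -0.72 for the members. All measured genes of these 4 granule and neutrophil lists were lower there. In fMLP pair 1 the medians of the same 4 lists lay between -0.061 and 0.020, and that of the neuron genes was 0.048. Without that array the members' differences after fMLP had a median of -0.095. The part of the neuron signal in the members' values was not tested.

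**Figure D4:**
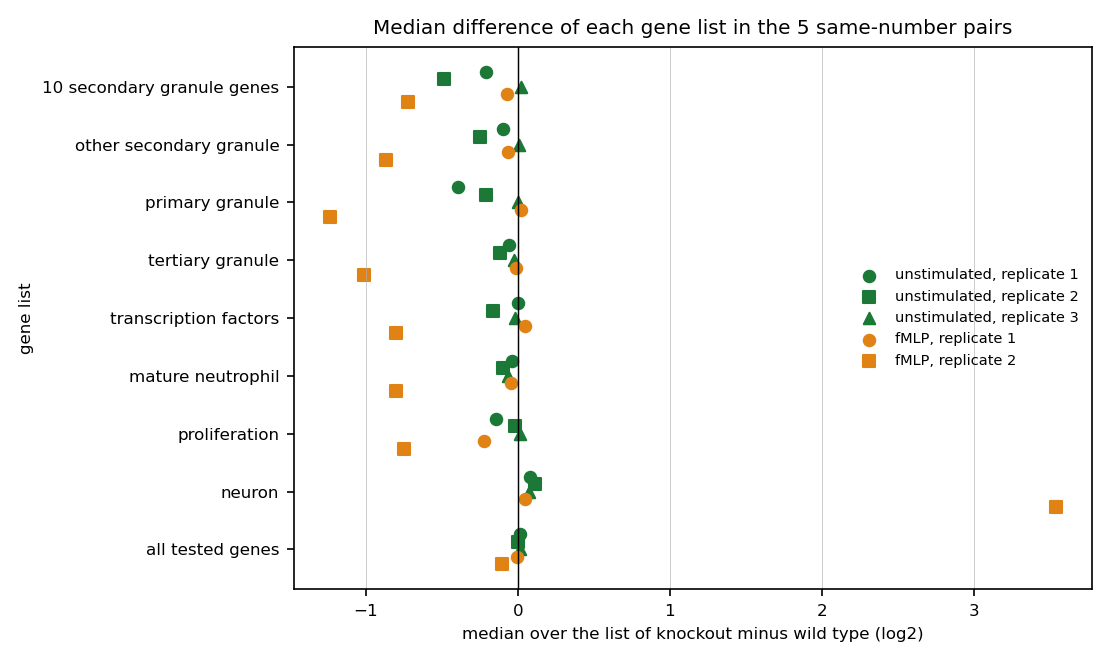
Median over each gene list of knockout minus wild type (log2) in the 5 same-number pairs, with green symbols for unstimulated and orange symbols for fMLP pairs. In fMLP pair 2 (orange squares) every neutrophil list lies at or below -0.72 and the neuron list at 3.54, while unstimulated pair 3 (green triangles) lies between -0.063 and 0.072 in the lists drawn.

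The transcription factors that govern granule formation were measured too. Cebpe, the C/EBP factor that secondary granule genes need in mice, had 10.39, 10.34 and 11.79 in unstimulated knockout cells, against 10.40, 10.50 and 11.81 in wild type cells, a difference of -0.06 (SE 0.51). After fMLP Cebpe had 11.74 and 10.96 in knockout cells, against 11.77 and 11.93 in wild type cells. It thus lay within 0.16 of its partner in every pair but fMLP pair 2. Gfi1, a repressor needed for neutrophil formation, was higher in the knockout in all 3 unstimulated pairs, by 0.21, 0.33 and 0.13, with a difference of 0.22 (SE 0.23), while after fMLP it was 0.13 in pair 1 and -0.62 in pair 2, with a difference of -0.25 (SE 0.28). Spi1, the gene of PU.1, was lower by -0.094, -0.18 and -0.13 in the 3 unstimulated pairs (difference -0.13, SE 0.69) and by -0.045 and -0.90 in the fMLP pairs (difference -0.47, SE 0.84). Of the 3, none was called in a genotype comparison.

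How alike the members were across arrays was described after the mean of each array set was taken off each gene. On that scale the mean of the members was lowest on unstimulated knockout replicate 2 (-0.35) and fMLP knockout replicate 2 (-0.55), and between 0.021 and 0.21 on the other 8 arrays. Over the 10 arrays, the members' own correlation with that mean, which contains each of them, ran from 0.62 (Ngp) to 0.97 (Cd177). The genes outside the set with the highest correlation were Pgd (0.994), an enzyme of the pentose phosphate pathway, St3gal5 (0.989), a sialyltransferase, Coro1a (0.984), an actin-binding protein, Aph1c (0.983), Ano10 (0.980), Arhgdib (0.978), Yy1 (0.977) and Fam107b (0.976). The points share the arrays and their quality, and 2 arrays weigh most. Without both knockout arrays numbered 2, over 8 arrays, St3gal5 had 0.991 and Pgd 0.949, but Coro1a had 0.646. The members then ran from 0.199 (Camp) and 0.201 (Ngp) to 0.793 (Ltf).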

How the data were processed

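The value table holds RMA signals that the authors obtained with Affymetrix Expression Console, per the submitters' processing notes. The deposited values were read as log2 because of their range. Neither the log base nor a version is given in the sources used here. All 10 arrays and all 35556 probe sets were read. 21789 probe sets name 1 gene, 1621 several and 12146 none. The brightest single-gene probe set stood for each of 19938 genes, and 14070 genes with at least 2 arrays above 8.18 were tested.

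limma 3.58.1 in R 4.3.3 (statmod 1.5.0) fitted all 10 arrays with 1 coefficient per group and no block (6 residual degrees of freedom). Tests were two-sided, with Benjamini-Hochberg adjustment over all tested genes, called below 0.05. The procedure was tested on simulated data. Exact permutation could not go below 0.1 for 3 against 3 arrays or 0.333 for 2 against 2. Arrays have no read depth, so their number limits the precision.

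Alternatives were another normalisation, filters, variance models, array weights, blocks for replicate or array set, and arrays left out. Members, lists and tests were chosen with earlier results of these data known. Named genes were the members, Lcn2, Cebpe, Gfi1, Spi1, up to 4 genes of smallest p per list, and the 8 most like the members' mean, besides which Snap25, Chil4 and the neutrophil markers served as checks. Same-number unstimulated arrays deviated together (correlations 0.949, 0.929 and 0.988). Arrays of set 1 with unlike numbers did so nearly as much (0.866 and 0.874), so this is mostly the array sets. Same-number fMLP arrays did not deviate together (0.0598). The labels do not state a pairing.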

Additional observations from a re-analysis of the deposited data

How the results depend on the processing

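Across all alternatives no member was called in either genotype comparison (500 member values, of which 36 had the opposite sign). The replicate block changed no member's call in these comparisons and no count but those given here. The unstimulated genotype comparison called 0 genes in array set 2 alone and with both unstimulated arrays numbered 2 left out. The genotype comparison after fMLP called 0 genes with a robust variance trend, with a replicate block (also on only the arrays compared), with only the arrays compared and in set 2 alone. The fMLP comparison called 3 genes with the robust trend, 11762 with array weights, 11758 with a fixed and 11949 with a random replicate block, 48 with the array set block, 0 in set 2 alone and 1428 with the set block without fMLP knockout replicate 2. Fits on only the arrays compared add nothing to comparisons that use all 10 arrays, and set 1 holds no fMLP array. The members' median for genotype unstimulated was 0.024 in set 2 and -0.40 with array weights. For fMLP it was 0.63 with quantile normalisation, 1.56 with array weights and with the fixed replicate block, 1.53 with the random one, -0.11 with the set block and in set 2, and 0.014 with the set block without fMLP knockout replicate 2. For the interaction it was 0.19 with array weights, -0.48 in set 2 and 0.10 with that block without that array.

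With each array left out in turn, the genotype counts were 1 to 1 unstimulated and 0 to 86 after fMLP (86 without fMLP knockout replicate 1), and those for fMLP were 1 to 8099 (7661 without wild type and 8099 without knockout unstimulated replicate 3) and for the interaction 0 to 16 (16 without fMLP knockout replicate 1). The medians ran from -0.83 to 0.23, -0.70 to -0.095, 0.77 to 1.30 and -0.63 to 0.30. The interaction's median turned above 0 without unstimulated wild type replicate 1 or 2, unstimulated knockout replicate 3 or fMLP knockout replicate 2. Unstimulated genotype differences ran from -0.87 to 0.15 (Ltf), -0.60 to 0.23 (Camp), -0.25 to 0.031 (Ngp), -1.57 to 0.50 (Chil3), -0.68 to 0.091 (Mmp8), -0.88 to 0.54 (Hp), -0.98 to 0.71 (Olfm4), -0.60 to 0.15 (Pglyrp1), -0.92 to 0.25 (Cd177), -0.78 to 0.39 (Itgb2l), and after fMLP from -0.91 to 0.036 for Chil3. Leaving out 1 unstimulated array fills the sets unequally. In set 2 alone, unstimulated differences were 0.056 (Ltf), 0.084 (Camp), 0.098 (Chil3), 0.0042 (Hp), 0.028 (Olfm4), 0.021 (Pglyrp1), 0.098 (Cd177) and 0.015 (Itgb2l). Camp was at 0.0096 without both unstimulated arrays numbered 2, and Ngp after fMLP at 0.062 with quantile normalisation. Except where the arrays used show it, the cause was not tested.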
